A study of Mus musculus with 80 samples.

Results

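Of the 10 genes described here, Acta2, Actg2, Myh11, Mylk, Cnn1, Tagln, Smtn, Lmod1 and Des encode parts of the contractile machinery of smooth muscle. Casq2 encodes a calcium-binding protein of the sarcoplasmic reticulum. The 10 genes were taken as a named list from 21631 protein-coding genes on the mouse autosomes and the X chromosome. No threshold on a measured value set the list, but earlier results of these data were known when it was chosen. The measurement was CUT&RUN for H3K27me3, in which an antibody to histone H3 trimethylated at lysine 27 directs a nuclease to cut out the chromatin that carries this mark. The cells were fibroblasts purified with magnetic beads from digested mouse myometrium and endometrium.

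H3K27me3 is laid down by the Polycomb repressive complex PRC2 and is found over genes that a cell type keeps silent. Kdm6b encodes a demethylase that removes it. Smooth muscle contracts when myosin light chain kinase phosphorylates myosin and myosin pulls on actin filaments, and serum response factor with myocardin switches many of these genes on by binding CArG boxes in their promoters. Fibroblasts lie beside the muscle cells of the myometrium, and some contractile genes, above all Acta2, are also used by activated fibroblasts.

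Each deposited peak list pooled 3 samples of 1 group, so 16 lists stood for 48 of the 80 samples, and the other 32 samples were not analysed here. The Kdm6b set held 12 lists from females mated with a B6 male, all homozygous for floxed Kdm6b (Kdm6b f/f), controls included. In 5 control and conditional knockout (cKO) pairs the cKO mice carried Pgr-Cre, a driver that acts wherever the progesterone receptor gene is on. These pairs came from gestation day (GD) 5.5, GD8.5 and GD14.5 inter-implantation sites (IIS), the stretches of uterus between embryos, and from GD14.5 and GD18.5 implantation sites (IS). In the other pair, from GD14.5 IS, the cKO mice carried Pdgfra-Cre, which is active in fibroblasts. The B6CBAF1/J set held 4 lists: uterus at GD0.5, IIS at GD5.5 after natural mating, uterus at GD5.5 of females paired with a vasectomized male, and uterus of non-pregnant mice given progesterone for 3 days. The peak settings of the sets differed, so each set is described on its own.

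Coverage below means how much of a gene's span plus 2 kb flanks was inside peaks, in percent, so genes are compared per length. Lists held 221350 to 287629 peaks over 609.3 to 739.9 Mb in the Kdm6b set, and 131900 to 167542 peaks over 680.5 to 704.4 Mb in the B6CBAF1/J set. These peak lists are lenient: only 0.0501 to 0.830% of peaks in the Kdm6b set reached a −log10 q of 2. Read depth is unknown, and no list has replicate values, so precision comes from the spread over pairs. A pooled list cannot tell a mark carried by more cells from more mark per cell. The lists hold no reads over the deleted part of Kdm6b, so the genotype labels were not checked here. Peak names inside both Pgr-Cre lists of GD14.5 IS carry a version mark that those of the other 10 lists of the set lack, and what it stands for is not stated.

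As a check of the labelled cell type, 7 of 12 fibroblast markers, among them the collagen genes Col1a1, Col1a2 and Col3a1, had no peak in any of the 16 lists. Of all 21631 protein-coding genes, 6877 had none either. The fibroblast markers with peaks were Fap, Pdgfra, Mmp2, Thy1 and Fbln1. Their mean control coverage was 45.1, 22.9, 11.97, 8.295 and 0.356% in this order. The median mean control coverage was 91.1% over 10 epithelial markers, 78.6% over 8 immune markers and 16.9% over 8 endothelial markers. All 10 epithelial, 5 of 8 immune and 3 of 8 endothelial markers had mean control coverage of at least 50%. Within these lists the immune genes Cd68, Csf1r and Adgre1 had 0, 0.836 and 11.1%, and the endothelial genes Emcn and Tek 0 and 1.26%. Most fibroblast markers were thus free of the mark and epithelial markers densely marked. The check did not set fibroblast markers apart from every immune or endothelial marker.

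Promoter sequences of 7 members were found in the RefSeq table (GRCm38.p6, which is mm10), each from 250 bases before to 50 bases after a start site. No entry was found for Actg2, Tagln and Myh11. The Acta2 promoter lies at chr19:34255324-34255623 on the minus strand and is shown because peaks lay over it in some lists and not in others. The Casq2 promoter (chr3:102086165-102086464, plus strand) and the Mylk promoter (chr16:34784700-34784999, plus strand) belong to the members whose coverage differed most between cKO and control lists. The Cnn1 promoter (chr9:22099003-22099302, plus strand) lay inside peaks in all 16 lists, and the Des promoter (chr1:75360042-75360341, plus strand) in none. Capitals mark matches to CC, 6 bases of which at least 5 are A or T, and GG, a relaxed CArG box that reads the same on both strands.
Acta2: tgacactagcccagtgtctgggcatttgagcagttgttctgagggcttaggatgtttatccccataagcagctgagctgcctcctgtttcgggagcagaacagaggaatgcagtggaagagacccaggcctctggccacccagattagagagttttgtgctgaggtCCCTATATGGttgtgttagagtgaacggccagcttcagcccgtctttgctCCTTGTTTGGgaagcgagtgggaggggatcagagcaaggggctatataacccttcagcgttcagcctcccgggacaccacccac
Casq2: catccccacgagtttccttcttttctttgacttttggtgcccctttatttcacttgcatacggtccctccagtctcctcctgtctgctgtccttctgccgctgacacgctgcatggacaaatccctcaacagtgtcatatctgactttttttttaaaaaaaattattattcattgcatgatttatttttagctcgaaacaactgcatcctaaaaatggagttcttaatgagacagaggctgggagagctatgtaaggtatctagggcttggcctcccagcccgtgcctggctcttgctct
Mylk: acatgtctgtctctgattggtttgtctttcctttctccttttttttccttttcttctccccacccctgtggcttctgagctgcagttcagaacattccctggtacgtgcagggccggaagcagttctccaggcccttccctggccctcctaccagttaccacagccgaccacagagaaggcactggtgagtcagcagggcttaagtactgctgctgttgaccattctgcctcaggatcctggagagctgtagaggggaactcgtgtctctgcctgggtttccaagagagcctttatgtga
Cnn1: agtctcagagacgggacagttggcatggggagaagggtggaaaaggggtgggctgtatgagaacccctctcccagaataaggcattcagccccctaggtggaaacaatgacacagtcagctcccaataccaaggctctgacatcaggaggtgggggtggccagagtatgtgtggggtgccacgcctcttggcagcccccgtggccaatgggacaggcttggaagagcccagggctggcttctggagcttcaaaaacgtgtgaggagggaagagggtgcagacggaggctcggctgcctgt
Des: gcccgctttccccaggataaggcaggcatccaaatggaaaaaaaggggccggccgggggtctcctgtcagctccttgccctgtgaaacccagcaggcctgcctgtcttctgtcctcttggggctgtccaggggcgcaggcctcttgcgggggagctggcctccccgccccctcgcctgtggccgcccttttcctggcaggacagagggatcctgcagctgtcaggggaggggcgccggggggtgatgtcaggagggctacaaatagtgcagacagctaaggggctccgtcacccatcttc

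The Acta2 promoter held 2 relaxed matches, CCCTATATGG starting 84 bases and CCTTGTTTGG starting 34 bases before the start site. The other 6 promoters held none, and 9.69% of 17274 promoters in the table held at least 1. The strict box, with A or T at all 6 inner positions, was in 0 of the 7 and in 1.56% of all. The 7 promoters were poor in CpG, with 4 (Mylk) to 11 (Smtn and Des) CpG dinucleotides each, against a median of 14 over all promoters.

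In the Kdm6b set the 10 genes fell into 4 levels. Actg2 was covered nearly end to end, Cnn1, Lmod1 and Acta2 were covered on their start side, and Casq2 and Mylk were marked sparsely in control lists. The other 4 were nearly or fully free of peaks: Myh11 had at most 1.68% coverage in the Kdm6b set and 1.87% in the B6CBAF1/J set, and Tagln, Smtn and Des had no peak in any list.

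**Figure D1:**
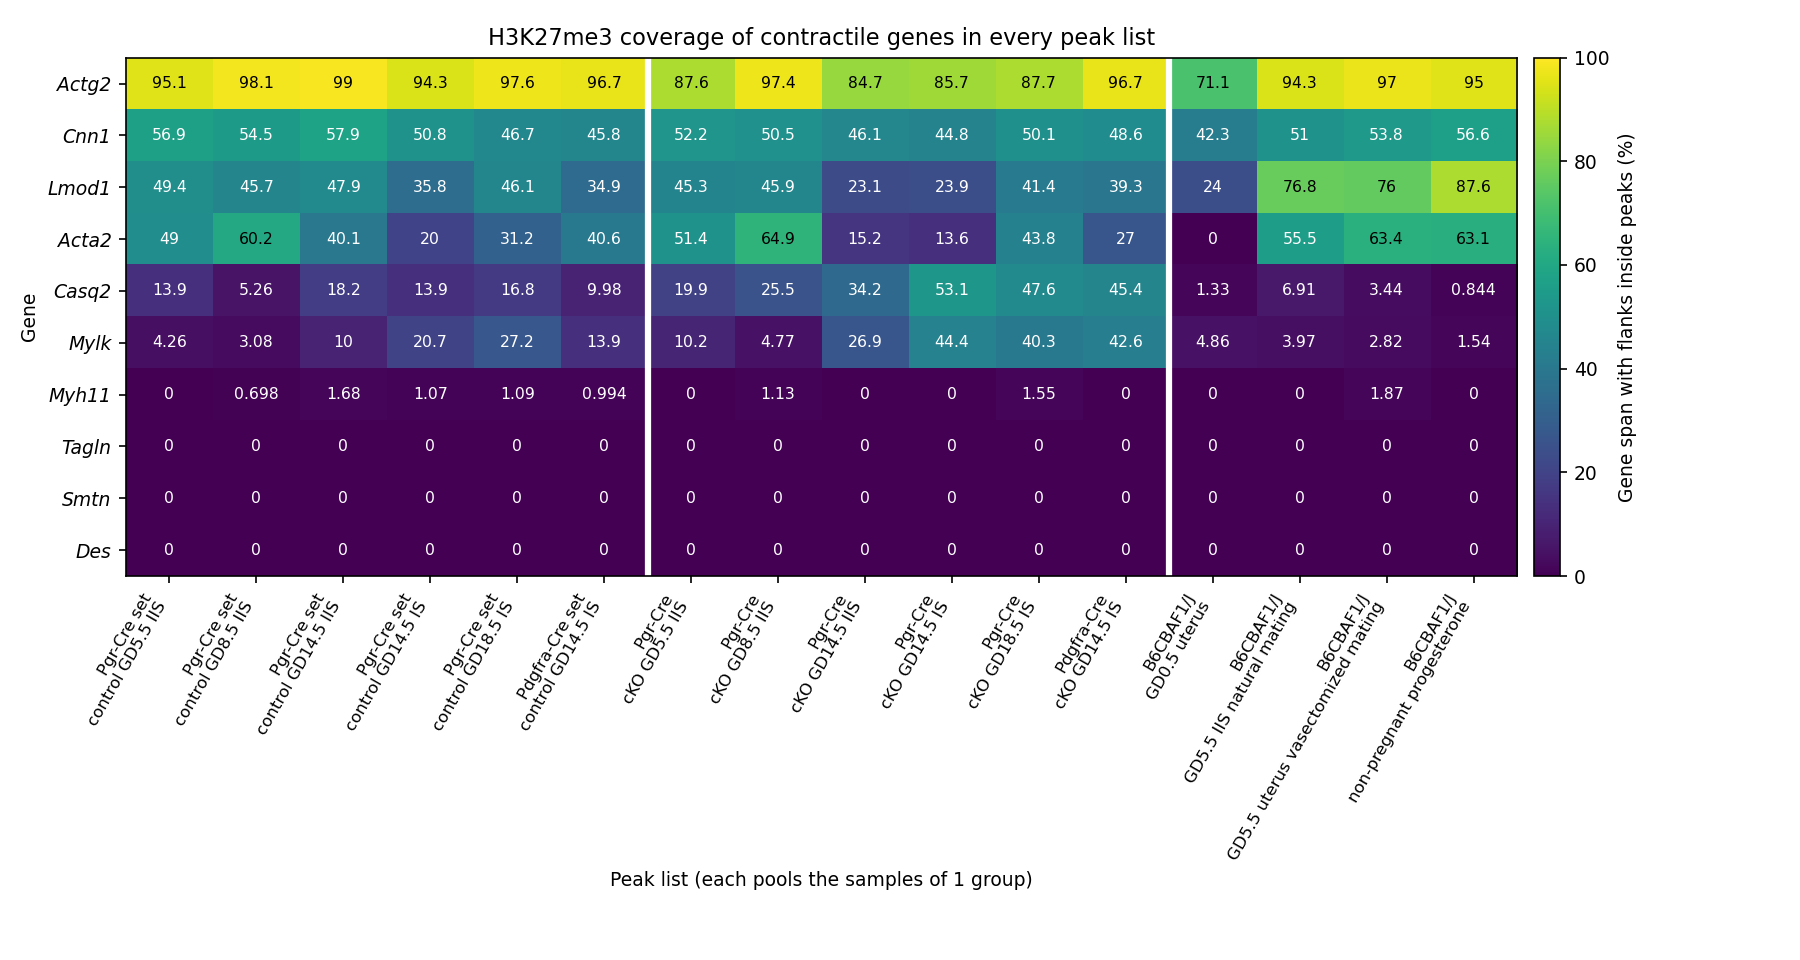
Percent of each gene's span with 2 kb flanks inside peaks (colour and printed value) for the 10 contractile genes (rows) in the 16 peak lists (columns), with white lines between the 6 control lists, the 6 cKO lists and the 4 B6CBAF1/J lists. Actg2 was above 70% in every list, and Tagln, Smtn and Des were at 0 throughout. Casq2 and Mylk were higher in the cKO list of each pair, though for Mylk the cKO and control values overlapped across pairs.

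Of the 10 members, 6 had a mean coverage of at least 5% over the 12 lists of the Kdm6b set and were tested between cKO and control with limma on the 6 paired differences, adjusted over all 10205 genes tested. Casq2 rose and 5 members did not pass at an adjusted p of 0.05. Over all genes tested, 7.99% rose and 6.45% fell, so a count of 1 riser and 0 fallers among 6 does not set the list apart. The median of the difference was 0 points over all genes tested and −3.80 points over the 6 members.

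**Figure D2:**
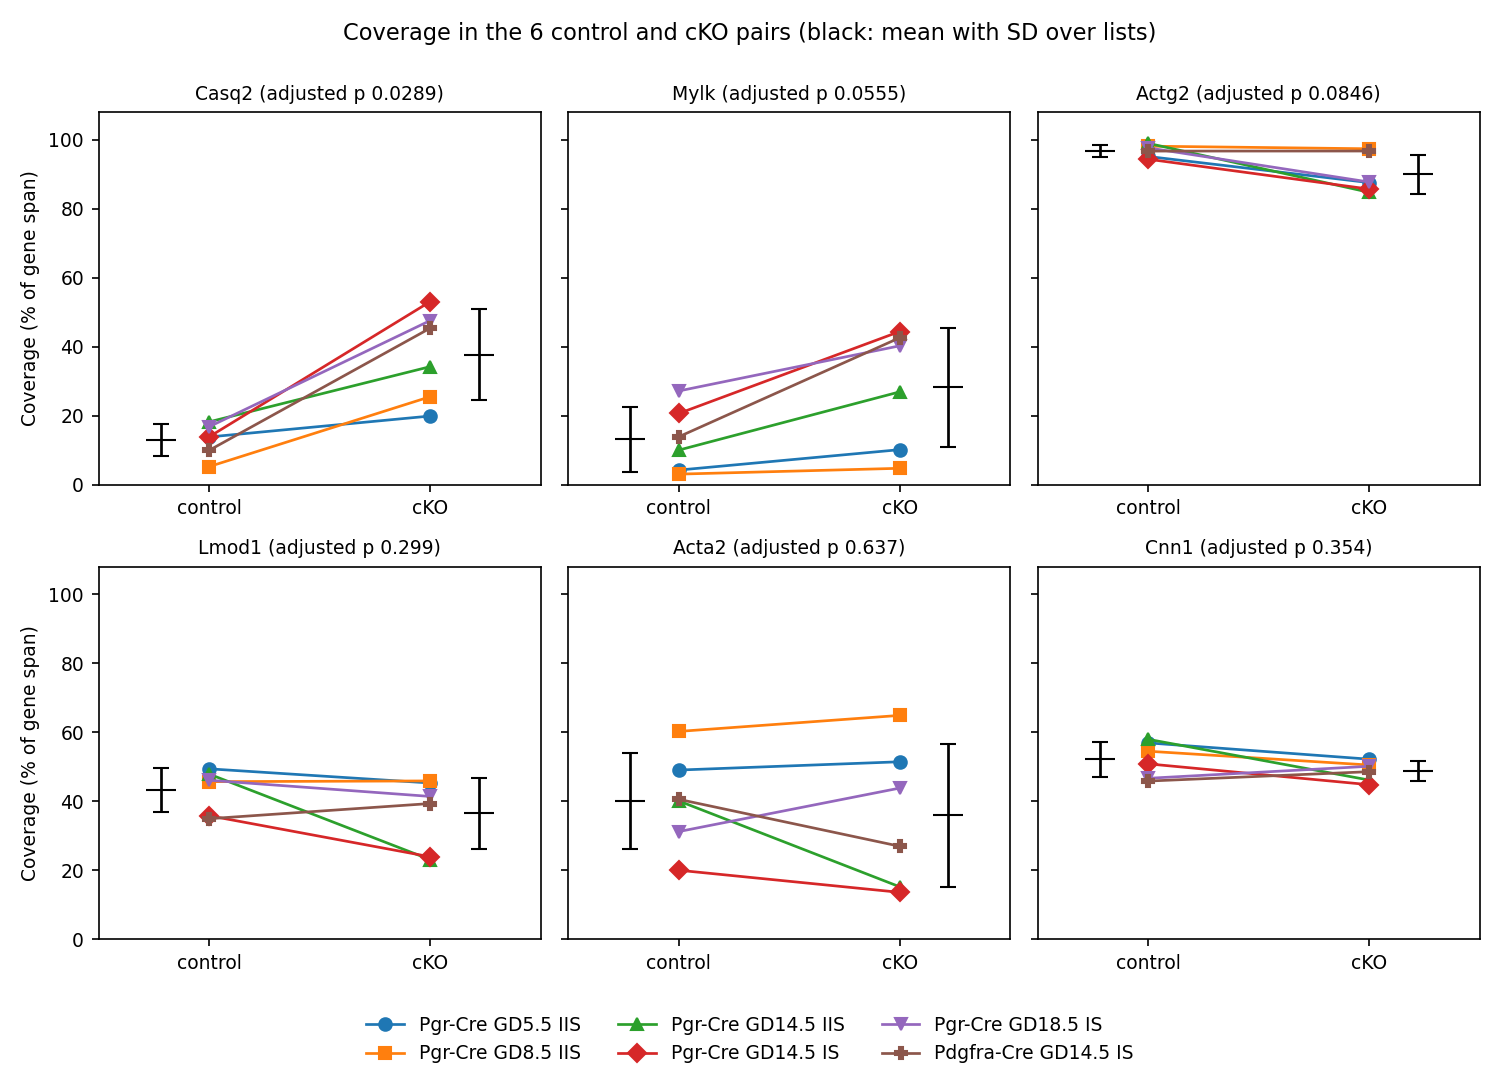
Coverage (percent of the gene span with flanks, vertical axis) in the control and cKO list of each of the 6 pairs, joined by a line, for the 6 tested members, with limma adjusted p above each panel and the mean with SD over 6 lists in black. Every Casq2 and Mylk line goes up, while Acta2 lines go both ways.

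Casq2 encodes calsequestrin 2, the calcium-binding protein of the sarcoplasmic reticulum, best known from heart muscle and also used in smooth muscle. The gene lies at chr3:102086415-102146514 on the plus strand. At the inter-implantation sites its coverage was 13.9% in control and 19.9% in cKO lists at GD5.5, 5.26% and 25.5% at GD8.5, and 18.2% and 34.2% at GD14.5. At the implantation sites of the Pgr-Cre set it was 13.9% and 53.1% at GD14.5 and 16.8% and 47.6% at GD18.5, and in the Pdgfra-Cre pair 9.98% and 45.4%. All 6 cKO lists stood above all 6 control lists, whose highest value was 18.2%, and the widest gaps were at the implantation sites. Over the 6 pairs the mean rose from 13.0 ± 4.74% to 37.6 ± 13.2% (SD, n = 6), a difference of 24.6 ± 12.7 points (SD, 95% interval 12.8 to 36.4, limma adjusted p = 0.0289). Among all genes tested, 11.8% were higher in all 6 pairs.

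The cKO lists had more peaks over Casq2, 9 to 18 a list against 3 to 9 in the controls. The gain lay in separate stretches of the start-side, middle and far parts of the gene, and 20.9% of the window was in no peak of the Kdm6b set. The gene span without flanks was cut into 3 equal segments. Mean coverage was 17.1% in control and 43.4% in cKO lists on the start side. It was 2.84% and 26.3% in the middle and 12.6% and 41.01% at the far end. Each segment was higher in cKO in 6 of 6 pairs. The start site itself was already marked in the controls: coverage of the 2 kb on either side averaged 87.1% in control and 96.0% in cKO lists (limma adjusted p = 0.702). The longest start-side peak of the GD8.5 cKO list, chr3:102079030-102090249, was 11.2 kb wide with a fold of 1.25 over background and a −log10 q of 0.0870, both the authors' values. The neighbouring gene Nhlh2, 70.9 kb away, was covered to 100% in control and 98.7% in cKO lists, and Vangl1 on the other side to 1.82% and 3.47%.

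The covered length of the whole list differed within pairs too, most in the Pdgfra-Cre pair with 609.3 Mb in the control and 732.1 Mb in the cKO list. With every list cut to the same covered length, Casq2 averaged 6.61% in control and 20.1% in cKO lists, higher in 6 of 6 pairs (limma adjusted p = 0.0496). The call was lost when any pair but that of GD5.5 was left out (limma adjusted p 0.0293 to 0.0761 over the 6 omissions), while the difference stayed between 21.7 and 28.3 points.

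Mylk encodes myosin light chain kinase, the enzyme that starts contraction, together with the short protein telokin from the far end of the gene. It is the longest member, at chr16:34745199-35002436 on the plus strand. At the inter-implantation sites its coverage was 4.26% in control and 10.2% in cKO lists at GD5.5, 3.08% and 4.77% at GD8.5, and 10.0% and 26.9% at GD14.5. At the implantation sites it was 20.7% and 44.4% at GD14.5, 27.2% and 40.3% at GD18.5, and 13.9% and 42.6% in the Pdgfra-Cre pair. The cKO list was the higher in 6 of 6 pairs, but the groups overlapped, since GD5.5 and GD8.5 cKO lists lay below several control lists of later days. The difference was 15.0 ± 10.3 points (SD, n = 6, 95% interval 5.37 to 24.6, limma adjusted p = 0.0555) and missed the threshold. It passed under 2 of 17 alternatives, with 5 kb flanks (limma adjusted p = 0.0429) and with the median difference of all genes subtracted in each pair (limma adjusted p = 0.0338). With lists cut to equal covered length the difference was 11.9 points, higher in 5 pairs and lower in that of GD8.5 (limma adjusted p = 0.124), and no omission of a pair passed (limma adjusted p 0.0640 to 0.135).

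Marked stretches lay in the start-side and middle segments of Mylk, where coverage averaged 19.8% and 18.2% in control and 46.6% and 36.6% in cKO lists, while the far segment was at 0% and 0.215%. A stretch of 57.8 kb at the far end had no peak in any of the 16 lists. Just before the start of the gene span at position 34745199, the stretch chr16:34743199-34744294 was covered in all 12 lists of the Kdm6b set. The promoter shown above belongs to a start site inside the gene, at position 34784950. Around this internal start site, the 2 kb on either side were covered in 3 of 6 control lists. Coverage there was 61.2% at GD14.5 IS, 60.5% at GD18.5 IS and 23.3% in the Pdgfra-Cre set. In the cKO lists of these pairs it was 91.1%, 76.9% and 79.6%. At the inter-implantation sites the cKO lists had 51.9% at GD5.5, 0% at GD8.5 and 85.6% at GD14.5, where all 3 control lists had 0%. The mean difference of 40.02 points in this window did not pass (limma adjusted p = 0.242). The widest Mylk peak was in the Pdgfra-Cre cKO list, chr16:34732047-34763718, at 31.7 kb and a fold of 1.38. The neighbours Ccdc14 and Hacd2 stayed at or below 3.22% in all 12 lists.

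**Figure D3:**
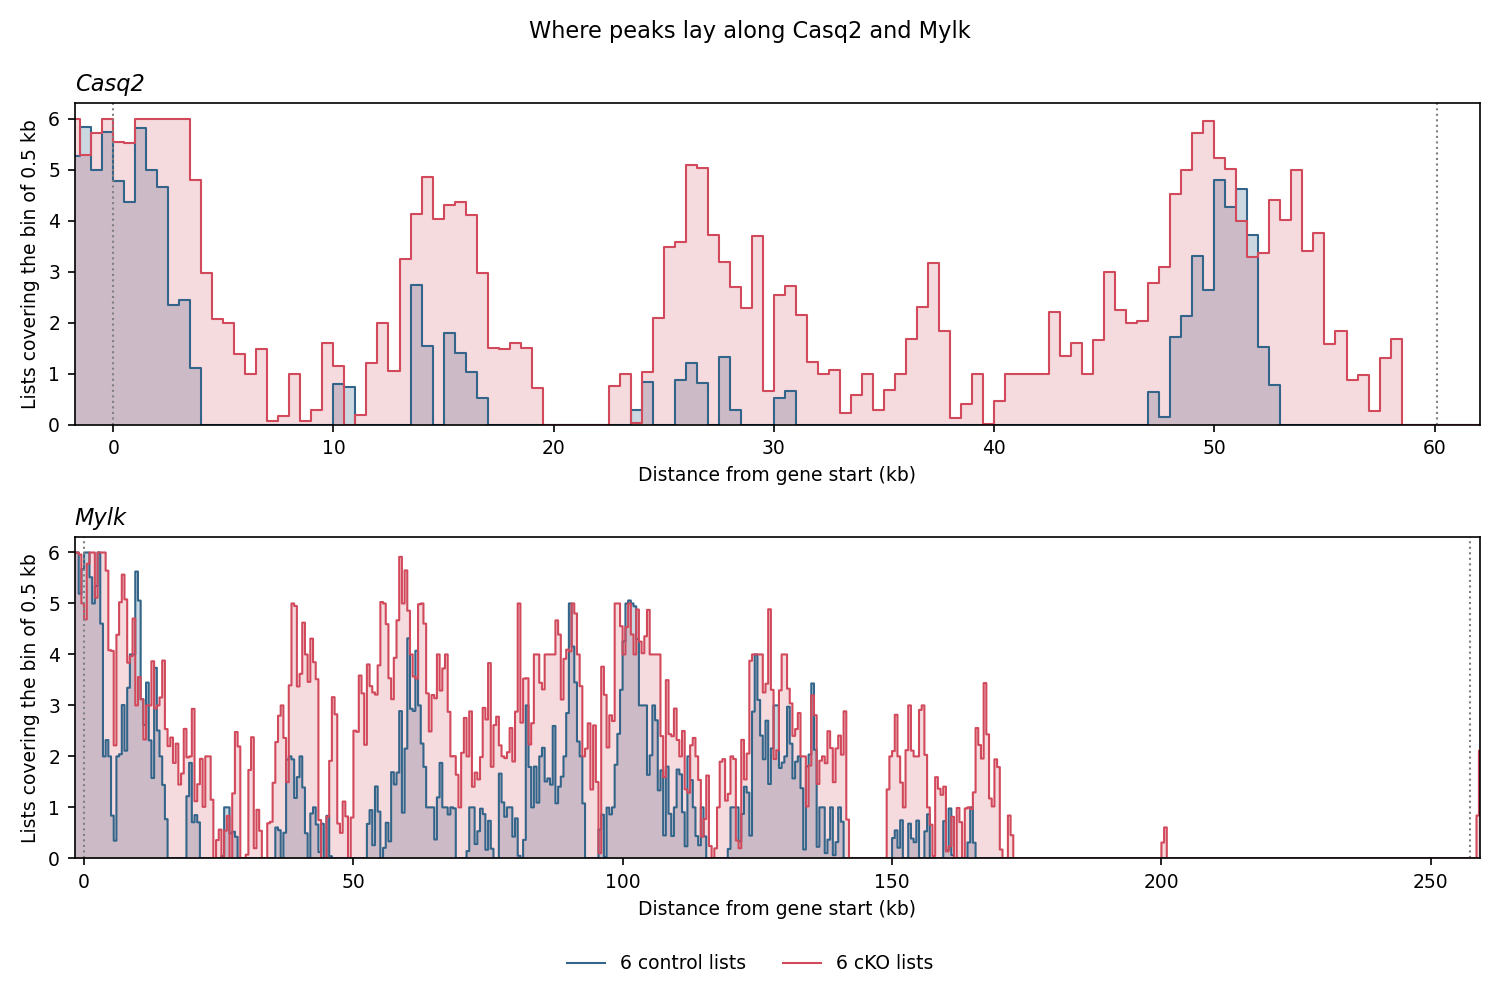
Number of control lists (blue) and cKO lists (red) that cover each bin of 0.5 kb, averaged over its bases (vertical axis, 0 to 6), along Casq2 and Mylk by distance from the gene start in kb. Dotted lines mark the gene ends. Peaks in cKO lists filled some of the gaps between the marked stretches of the control lists along Casq2 and the start-side and middle parts of Mylk.

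Actg2 encodes gamma smooth muscle actin, the main actin of visceral smooth muscle, at chr6:83512909-83536251. Its coverage in the order GD5.5, GD8.5 and GD14.5 IIS, GD14.5 and GD18.5 IS and Pdgfra-Cre GD14.5 IS was 95.1, 98.1, 99.0, 94.3, 97.6 and 96.7% in control lists. In the same order the cKO lists had 87.6, 97.4, 84.7, 85.7, 87.7 and 96.7%. Both groups were high throughout, and cKO lists were lower in 5 of 6 pairs and nearly equal at GD8.5 and in the Pdgfra-Cre pair. The difference of −6.85 ± 5.51 points (SD, n = 6, 95% interval −12.1 to −1.61) did not pass (limma adjusted p = 0.0846), and did under 1 of 16 alternatives, with the median difference of all genes subtracted in each pair (limma adjusted p = 0.0483). Without flanks it was −2.99 points (limma adjusted p = 0.324) and with equal covered length −10.5 points (limma adjusted p = 0.177). Among all genes tested, 21.2% were lower in at least 5 pairs.

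Peaks over Actg2 numbered 1 to 3 in the control and 2 to 5 in the cKO lists, and the longest peak of a list measured from 12.1 kb (GD18.5 IS cKO) to 28.5 kb (GD14.5 IIS control). In all 12 lists the same 19.1 kb, 70.0% of the window, lay inside peaks, in 5 stretches of at most 8.10 kb, and bases not shared by all lists lay mostly at the ends of the gene. Of the 12, the GD14.5 IIS control list alone held a single peak, chr6:83511196-83539714, of 28.5 kb with a fold of 1.66 and a −log10 q of 0.866. The neighbouring genes were mostly free of peaks, with mean control coverage of 0.360% for Dguok and 10.0% for Stambp.

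Cnn1 encodes calponin 1, which binds actin and restrains myosin, at chr9:22099221-22109221 on the plus strand. Control lists had 56.9, 54.5, 57.9, 50.8, 46.7 and 45.8% and cKO lists 52.2, 50.5, 46.1, 44.8, 50.1 and 48.6%, in the same order of pairs. The groups overlapped, and the difference of −3.40 ± 5.74 points (SD, n = 6, 95% interval −8.84 to 2.05) did not pass (limma adjusted p = 0.354) and came to −1.71 points without the GD14.5 IIS pair. The position of the mark was the steady feature: 2 kb on either side of the start site were covered to 100% in all 12 lists, and a stretch of 5.20 kb from 2 kb before the gene start to 3.20 kb inside it, chr9:22097221-22102416, was shared by all of them. The last 4.74 kb of the window had no peak in the Kdm6b set. The Cnn1 peak with the strongest q in this set was in the GD8.5 control list, chr9:22094740-22104107, with a fold of 1.76 and a −log10 q of 1.77. No peak of any member reached a −log10 q of 2.

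Lmod1 encodes leiomodin 1, which nucleates actin filaments in smooth muscle, at chr1:135324813-135368065 on the plus strand. Control lists had 49.4, 45.7, 47.9, 35.8, 46.1 and 34.9% and cKO lists 45.3, 45.9, 23.1, 23.9, 41.4 and 39.3%. The lowest 2 values were the Pgr-Cre cKO lists of GD14.5, at both kinds of site, and the other 4 cKO lists lay within the range of the controls. The difference of −6.81 ± 10.3 points (SD, n = 6, 95% interval −16.5 to 2.87) did not pass (limma adjusted p = 0.299). It was −3.22 points without the Pgr-Cre GD14.5 IIS pair and −14.9 points with equal covered length, and passed under neither. The mark sat on the start side, where the first of 3 equal segments averaged 94.0% in control and 79.7% in cKO lists, against 4.34% and 3.07% in the last.

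Acta2 encodes alpha smooth muscle actin, the classic marker of smooth muscle and of activated fibroblasts, at chr19:34240336-34255585 on the minus strand. Its 3′ flank runs into Stambpl1, which lies 2 bases (0.002 kb) away, and the 6.13 kb of the window on that side had no peak in any of the 16 lists. Control lists had 49.0, 60.2, 40.1, 20.01, 31.2 and 40.6% and cKO lists 51.4, 64.9, 15.2, 13.6, 43.8 and 26.95%. Among the 5 Pgr-Cre pairs the lowest value was at the GD14.5 implantation sites and the highest at GD8.5 in both genotypes. Over all 6 pairs the cKO list was higher in 3 and lower in 3. The difference of −4.21 ± 13.6 points (SD, n = 6, 95% interval −16.9 to 8.48) did not pass (limma adjusted p = 0.637), and its sign turned, to 6.49 points, with lists cut to equal covered length. It moved between −7.57 points without the GD18.5 pair and −0.0727 points without the GD14.5 IIS pair.

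Within 2 kb of the Acta2 start site, control lists had 88.8, 100, 82.4, 43.2, 49.5 and 46.4% and cKO lists 82.8, 100, 26.4, 15.1, 47.5 and 24.4%, in the same order of pairs. The cKO list was lower in 5 of 6 pairs and equal in the GD8.5 pair, though the ranges of the groups overlapped. The means of 68.4% in control and 49.4% in cKO lists did not pass as different (limma adjusted p = 0.362). Peaks overlapped the promoter printed above in 5 control and 3 cKO lists. A stretch of 0.553 kb just inside the gene start, chr19:34254531-34255083, was covered in at least 5 control lists and at most 1 cKO list. It was the only such stretch in Acta2, and 0 kb showed the opposite pattern. These bounds were set by the pattern itself, so they describe it and carry no test.

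**Figure D4:**
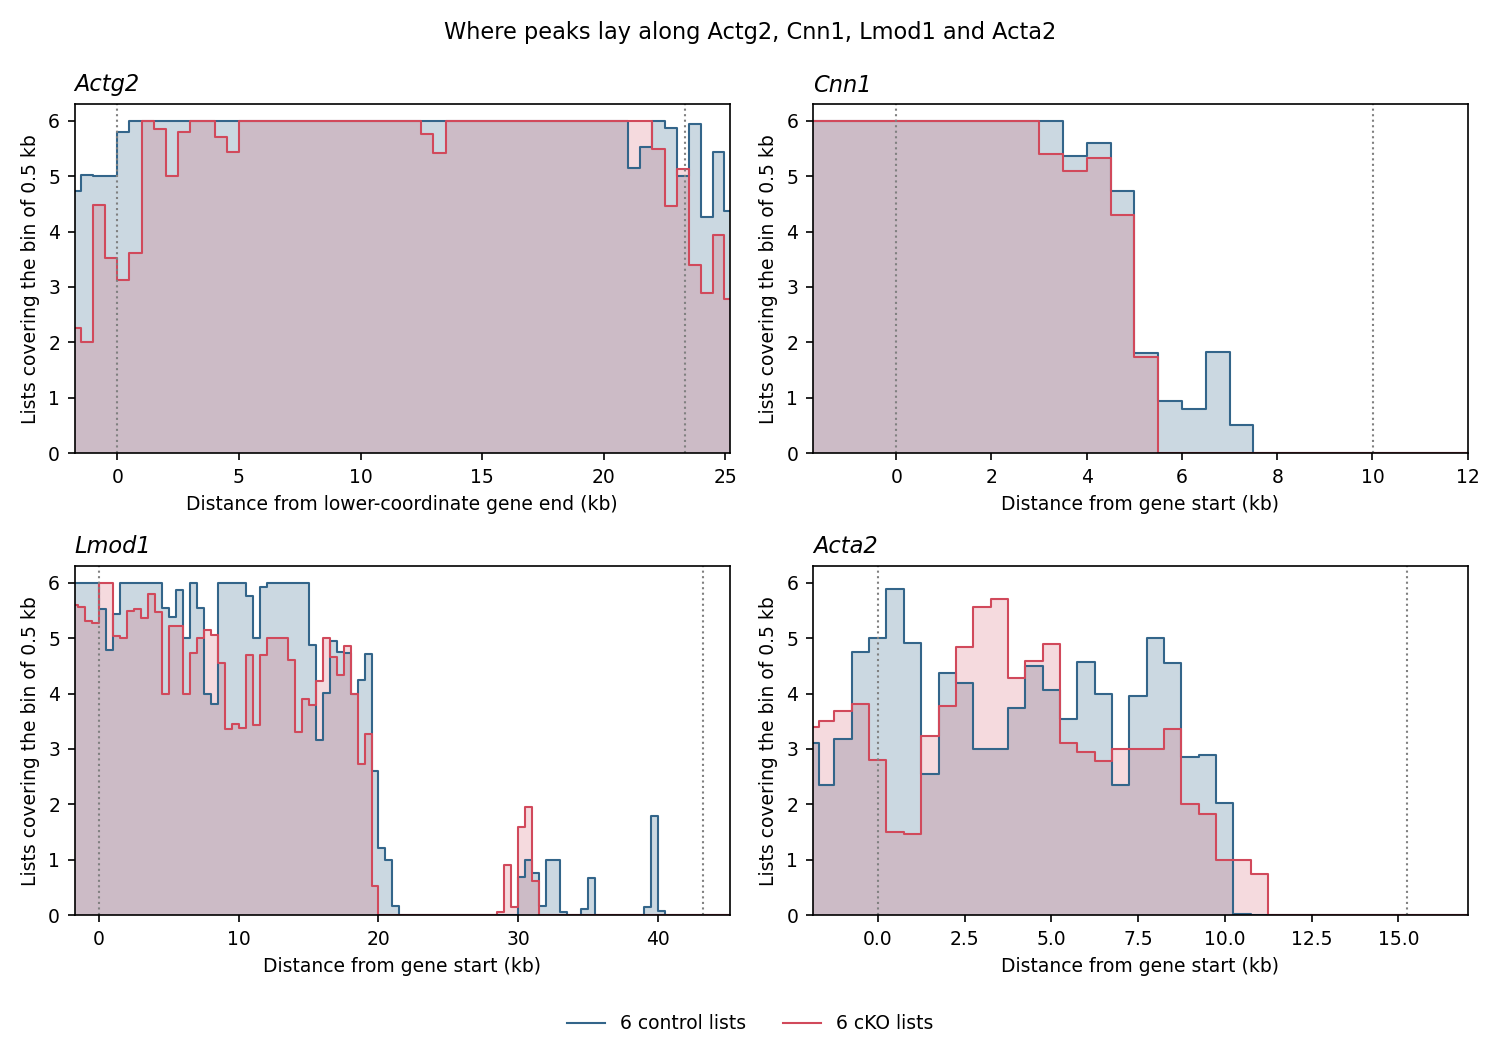
Number of control lists (blue) and cKO lists (red) that cover each bin of 0.5 kb, averaged over its bases, along Actg2, Cnn1, Lmod1 and Acta2, by distance from the gene start in kb (for Actg2, whose strand was not in the table, from its lower-coordinate end). Dotted lines mark the gene ends. Actg2 was covered throughout, Cnn1, Lmod1 and Acta2 on the start side, with fewer cKO than control lists just inside the Acta2 start.

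Myh11, the smooth muscle myosin heavy chain and the most specific marker of the lineage, had peaks of at most 1.15 kb in 7 of the 12 Kdm6b-set lists, and 95.9% of its window at chr16:14192527-14294188 was in no peak of that set. Tagln (transgelin, an actin cross-linker, chr9:45929628-45936058), Smtn (smoothelin, an actin-binding protein of contractile muscle, chr11:3517522-3539292) and Des (desmin, the muscle intermediate filament, chr1:75360292-75368579) were at 0% in all 12 lists. These 4 members did not enter the test. No coverage was thus common to the list as a whole: 3 of 10 members had no peak in any of the 12 lists, beside 32.1% of all protein-coding genes, and 2 of 10 had mean control coverage of at least 50%, beside 24.0%.

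Pair by pair, with 1 list a side and no test, no member differed by 50 points or more in either direction in any of the 6 pairs. Over all protein-coding genes, 0.647% were at least 50 points higher in cKO in 1 or more pairs and 2.55% at least 50 points lower. The largest member differences were 39.2 points for Casq2 in the Pgr-Cre GD14.5 IS pair and 35.4 points for Casq2 in the Pdgfra-Cre pair.

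Over gestation the control lists differed by gene, and each day had 1 list. Mylk had 4.26, 3.08 and 10.0% at GD5.5, GD8.5 and GD14.5 IIS, and 20.7 and 27.2% at GD14.5 and GD18.5 IS. Acta2 had 49.0, 60.2 and 40.1% and then 20.01 and 31.2%. At GD14.5, where both sites were sampled, the implantation site was 10.6 points higher than the inter-implantation site for Mylk, and lower by 20.1 points for Acta2 and 12.1 points for Lmod1. In the cKO lists the same contrast was 17.5 points higher for Mylk and 18.8 points higher for Casq2, and under 2 points in size for Acta2, Lmod1, Cnn1 and Actg2. At GD14.5 IS the control lists of the Pgr-Cre and Pdgfra-Cre sets, which share genotype, day and site, themselves differed by 20.6 points for Acta2 (20.01 and 40.6%), and by less for every other member.

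In the B6CBAF1/J lists 2 members stood out. Acta2 had no peak at GD0.5, and 55.5% coverage at GD5.5 after natural mating, 63.4% after mating with a vasectomized male and 63.1% after progesterone. Lmod1 had 24.0% at GD0.5 and 76.8, 76.0 and 87.6% in the other lists. Both were at least 50 points higher than GD0.5 in all 3 comparisons, the Lmod1 differences being 52.9, 52.0 and 63.6 points. Among all protein-coding genes, 0.305% were at least 50 points higher after natural mating, 0.273% after vasectomized mating and 0.402% after progesterone, against 2 of the 10 members in each. No member was 50 points or more lower than GD0.5 in any list, beside 0.791% of all genes. The 3 comparisons share the GD0.5 list, so they are not separate evidence, and with 1 list a group there was no test. Natural mating was sampled at inter-implantation sites and the others in whole uterus, so site and mating cannot be told apart there.

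The Acta2 block of the later lists covered the start site and ran into the gene. In all 3 lists it took in 10.7 kb that had no peak at GD0.5, its longest part at chr19:34246046-34254201. In the progesterone list it was 1 peak of 21.3 kb, chr19:34245436-34266745, with a fold of 1.37 and a −log10 q of 0.513. The Acta2 peaks were weaker in the other lists. Their highest fold and −log10 q were 1.15 and 0.0394 after natural mating, and 1.20 and 0.110 after vasectomized mating. Along Lmod1 the GD0.5 peaks lay in the start-side segment, covered to 69.2%, with 0% in the middle and far segments. In the later lists the start-side segment was covered to 100%, the middle one to 71.7 to 100% and the far one to 49.0 to 73.2%. The progesterone list held a peak of 40.5 kb there, chr1:135315901-135356360, with a fold of 1.63 and a −log10 q of 1.92, the highest of any member peak.

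**Figure D5:**
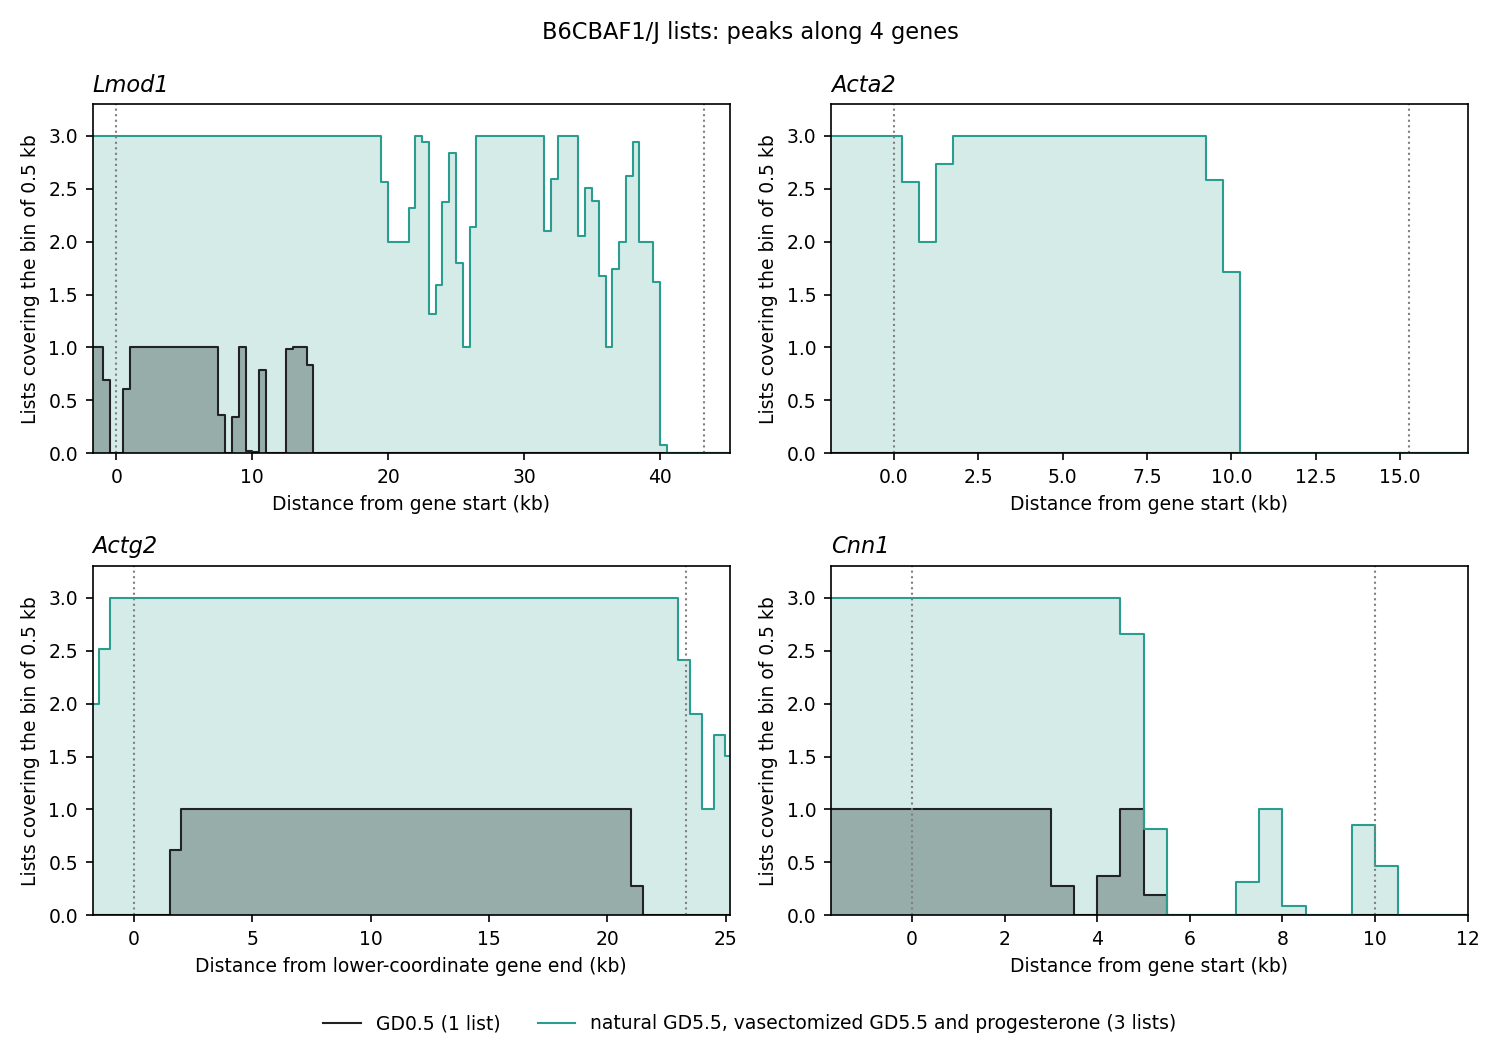
Number of B6CBAF1/J lists that cover each bin of 0.5 kb, averaged over its bases, along Lmod1, Acta2, Actg2 and Cnn1, for GD0.5 (black, 1 list) and for natural mating GD5.5, vasectomized mating GD5.5 and progesterone (green, 3 lists), by distance from the gene start in kb (Actg2 from its lower-coordinate end). Acta2 had no peak at GD0.5, and the Lmod1 peaks of the later lists ran further into the gene.

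Actg2 had 71.1% at GD0.5 and 94.3, 97.0 and 95.02% in the later lists, with the same 19.4 kb in peaks in all 4 and the ends of the gene added in the later ones. Cnn1 had 42.3, 51.0, 53.8 and 56.6% in this order. Actg2, Cnn1, Lmod1 and Acta2 were thus each lowest at GD0.5. Casq2 had 1.33, 6.91, 3.44 and 0.844% and Mylk 4.86, 3.97, 2.82 and 1.54%, low in every list with no common order, and Tagln, Smtn and Des had no peak.

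Among 40 other smooth muscle genes (regulators, channels and adhesion genes), 10 had enough coverage to be tested between cKO and control and 4 rose, with 0 falling, beside 7.99% that rose and 6.45% that fell over all genes tested. Kcnma1, the BK potassium channel that relaxes smooth muscle, rose from 16.0 to 38%, by 22.0 ± 3.35 points (SD, n = 6, limma adjusted p = 0.00300). Synm, the intermediate filament protein synemin, rose from 8.23 to 29.9% (limma adjusted p = 0.0340). The others were Itga8, an integrin subunit (3.58 to 9.58%), and Tns1, a tensin of focal adhesions (6.48 to 12.4%), and all 4 were higher in 6 of 6 pairs. The median difference over the 10 was 3.96 points. No peak in any of the 16 lists was found for 16 of the 40, beside 6877 of all 21631 protein-coding genes. Named after their values were seen, Myocd, the coactivator myocardin, had 63.1% in control and 64.2% in cKO lists, and Gja1, the gap junction protein connexin 43, 19.6 and 15.4%. Neither passed the test.

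The contractile genes of striated muscle were marked far more densely, with a median mean control coverage of 53.1% over 34 genes beside 13.1% over the 10 members and 3.15% over all genes. Of 28 tested, 5 rose and 0 fell, beside the same 7.99% and 6.45% over all genes tested. The 4 with the largest difference were Myl3, a ventricular and slow-muscle light chain (10.4 to 34.3%), Mylk3, the cardiac light chain kinase (18.7 to 36.2%), Tnni1, slow troponin I (49.8 to 66.4%), and Tnnt2, cardiac troponin T (28.5 to 43.2%).

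Few marker genes passed the same test, in which 7.99% of all genes tested rose and 6.45% fell. Their counts thus set no marker list apart. Of the tested markers, 0 of 4 fibroblast genes, 1 of 10 epithelial genes (Cdh1, 77.3 to 87.8%, limma adjusted p = 0.00415), 1 of 7 endothelial genes (Tek, 1.26 to 10.1%, limma adjusted p = 0.0161) and 0 of 6 immune genes passed, and none fell. Their median differences were 4.13, 1.55, 6.36 and −0.555 points, beside 0 over all genes tested. Whether a different mix of cells had a part in the Casq2 result was not tested.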

How the data were processed

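Peak lists for H3K27me3 CUT&RUN were used as deposited. The submitters' processing notes name STAR 2.7.5c, samtools 1.10, Picard, bedtools 2.29.1 and the mm10 build, with macs2 2.2.7.1 for the broad peaks. Each deposited list gives, per peak, its position, its fold over background (a ratio), and −log10 p and −log10 q, as the authors' caller wrote them. Each list pools 3 samples, and labels do not say whether samples are separate animals or whether pairs are independent, so p-values measure the spread between these lists only. An input-titled library whose antibody field names H3K27me3 was placed with the inputs, which enter no list.

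Peaks were merged within a list, positions written 1-based, and coverage computed over RefSeq gene spans (GRCm38.p6) with 2 kb flanks. Genes of 5% or more on average entered limma 3.58.1 (R 4.3.3) on the 6 differences, cKO minus control, with Benjamini-Hochberg adjustment over all genes tested. A check with known shifts added to the pair differences required only that the mean estimate return each shift, so it did not test the calls. Single comparisons have no test, and a difference of 50 points counted. Folds and q describe peaks within a list. All members were named, and of each other list the genes that passed or, where none or over 4 did, the 4 with the largest difference, with the nearest genes as neighbours. The members and lists were chosen with earlier results of these data known. Alternatives covered equal covered length, stricter peaks, other flanks, the start window, other filters and fits, and leaving out each pair. Scripts used python 3.11.15, numpy 2.4.6, pandas 2.3.3 and matplotlib 3.10.9.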

Additional observations from a re-analysis of the deposited data

How the results depend on the processing

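The count of 1 member risen over the 6 pairs became 0 with only peaks of −log10 q of at least 2, with only peaks of a fold of at least 3, in the start window, with no filter on mean coverage and in the 5 Pgr-Cre pairs alone. It became 2 with 5 kb flanks and with the median difference subtracted, Mylk being added, and ranged from 0 to 1 over the omissions of a pair. The count of 0 fallen became 1, Actg2, with the median difference subtracted. The mean Casq2 coverage was higher in cKO under each of the 17 alternatives in which it was tested (8.86 to 28.3 points), and passed in 9. In the start window, which gave 8.86 points, it was higher in 2 pairs and lower in 2. The 5 Pgr-Cre pairs and the omission of the Pdgfra-Cre pair are the same fit. With only the stricter peaks Casq2 did not enter the test, since its highest fold in the Kdm6b set was 1.51 and its highest −log10 q 0.368. Acta2 turned to 6.49 points with equal covered length. At 25 points in place of 50, members gained were 1 at GD14.5 IS and 1 at GD18.5 IS of the Pgr-Cre set and 2 in the Pdgfra-Cre pair, against 0. In the B6CBAF1/J lists 25 points gave 3 members in place of 2 after vasectomized mating, Actg2 being added at 25.9 points. At 50 points those 2 members gained became 1 after natural mating with equal covered length or with 5 kb flanks, 1 after vasectomized mating with 5 kb flanks, and 0 in all 3 comparisons with only peaks of −log10 q of at least 2, since no member peak reached it. Apart from that and the alternatives whose construction shows it, the cause was not tested. No paired analysis by replicate number was possible because each list pools its samples.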
